A study of Mus musculus with 6 samples.

Results

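The tRNA rows of all isotypes other than glycine, glutamate, lysine, valine, aspartate and histidine were examined in extracellular vesicles (EVs) of mouse astrocytes and neural stem cells (NSCs). A row was included when the table of counts typed it as tRNA and the amino acid in its name was not one of those 6. This gave 303 of the 432 tRNA rows, in a table of 61949 rows. The 303 rows carry 37 anticodons and 16 isotype labels, namely Ala, Arg, Asn, Cys, Gln, Ile, Leu, Met, Phe, Pro, SeC (selenocysteine), Ser, Sup (a predicted suppressor), Thr, Trp and Tyr. Many rows are copies that repeat one another, so rows of an anticodon whose counts lay within 10% or 10 counts in each library were joined, and the row with the most counts stood for its group. These rows are called leads, and there were 166 of them.

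Small RNA was sequenced from the P100 fraction, the pellet of the last spin of a serial centrifugation, with 3 libraries of astrocyte EVs, 3 libraries of NSC EVs and no other groups. The astrocytes were primary cells of the dorsal cortex, taken from CD1 pups on postnatal day 4, shaken to remove microglia and then oligodendrocytes, moved to exosome-free medium and later plated with 2% fetal bovine serum. The NSCs were primary cells from the subventricular zone of CD1 mice, named neonatal in the sample titles, with no transgene or agent given for either group in the labels. For these NSCs the sources used here give neither the medium nor the steps of the serial centrifugation, so cell type, region and culture cannot be told apart. Nothing in the labels ties each replicate to its own culture or animal, and the p-values therefore reflect only how far these 6 samples spread, which may be technical spread. In bulk EV pellets, fewer vesicles that carry an RNA and less of that RNA in each vesicle cannot be told apart.

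Transfer RNAs carry amino acids to the ribosome, where the anticodon pairs with the codon, and most are made by RNA polymerase III from gene copies that lie in clusters. Several genes share each anticodon, and genes of the same sequence give the same RNA. Fragments of tRNAs, cut in or near the anticodon loop, are common in small RNA libraries of vesicles. A count on a tRNA row does not tell a whole tRNA from a fragment.

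The sequences below show what separates some of the rows described here. They were found by position in transcripts of GENCODE vM21 or in promoter windows of RefSeq on GRCm38 (mm10), in lower case from 5′ to 3′ with the anticodon in capitals. The first pair is the Ser leads that share nearly all counts, at chr13:23518146-23518227 (plus strand) and chr4:10874064-10874145 (plus). The third is the Ala lead with the highest count of its isotype, at chr13:21222586-21222657 (plus). The fourth is an Arg lead that was higher in astrocyte EVs, at chr3:122292948-122293032 (minus). The fifth is a row labelled Leu, found at 3 places with the same counts and shown from chr19:3066556-3066627 (plus). The last is the mitochondrial Leu tRNA at chrM:2676-2750 (plus).
chr13.tRNA112-SerTGA: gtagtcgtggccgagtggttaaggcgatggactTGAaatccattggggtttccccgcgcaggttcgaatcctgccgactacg
chr4.tRNA16-SerAGA: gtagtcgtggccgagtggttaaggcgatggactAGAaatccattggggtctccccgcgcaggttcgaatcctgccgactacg
chr13.tRNA66-AlaAGC: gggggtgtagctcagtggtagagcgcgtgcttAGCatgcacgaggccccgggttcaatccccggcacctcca
chr3.tRNA628-ArgTCT: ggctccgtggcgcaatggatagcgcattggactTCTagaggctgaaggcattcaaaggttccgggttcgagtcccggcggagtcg
chr19.tRNA2-LeuAAG: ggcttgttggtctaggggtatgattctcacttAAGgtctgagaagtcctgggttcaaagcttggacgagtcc
chrM.tRNA1-LeuTAA: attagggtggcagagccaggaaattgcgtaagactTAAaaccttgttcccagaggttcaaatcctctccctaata

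The 2 Ser sequences share their first 33 and last 32 bases and differ by T34A, in the anticodon, and T50C, counted from 1 at the 5′ end with the SerTGA base first. The row labelled LeuAAG has 72 bases, and RefSeq names no tRNA gene at its 3 places. It differs at 12 positions from chr11.tRNA372-ProTGG, at 17 from chr17.tRNA997-ProTGG and at 39 from chr13.tRNA66-AlaAGC. Whether it is a Leu tRNA was not tested. Of 14 different nuclear member sequences that could be read, 11 hold the B box of the internal tRNA promoter, searched on the tRNA strand as GGTTC, any base, A, any 2 bases and CC. For comparison, 0.201% of 32851 promoter stretches of 73 bases hold it on either strand. The members are annotated tRNAs, so a higher rate among them was fixed in advance. The mitochondrial Leu sequence above holds the motif too, and use as a promoter was not tested. Initiator and elongator Met tRNAs share the anticodon CAT, and the Met rows were not told apart here because their sequences were not at hand.

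The copies were spread unevenly. Cys-GCA had 57 rows, 49 of them on chromosome 6 between 47978997 and 48363603, yet only 10 leads. The largest group of near-equal copies, with 37 rows, was also Cys-GCA. Of the 166 leads, 116 stood for 1 row and 50 for 2 or more. The 84 member rows on chromosome 13 all lay between 21161405 and 23530419. GENCODE annotates no gene at 246 of the 303 rows, an exon at 18 and only an intron at 39, and RefSeq names a tRNA gene at the same position for 280. All 303 rows had counts, but 13 leads did not pass the low-count filter, the highest of them chr9.tRNA1100-AlaAGC with 117 counts over the 6 libraries. The only suppressor row, chr13.tRNA79-SupTTA, held 4 counts, all in astrocyte EV replicate 2.

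**Figure D1:**
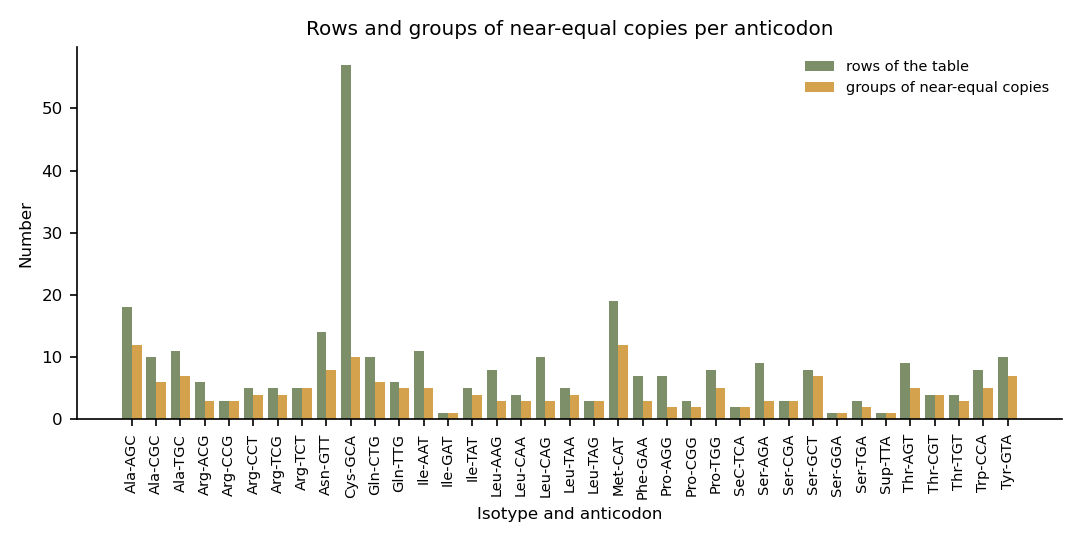
Number of table rows (green) and of groups of near-equal copies (yellow) for each isotype and anticodon. Cys-GCA stands apart with 57 rows in 10 groups.

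Summed over the rows fitted, astrocyte EV libraries held 72025129 to 111169085 counts and NSC EV libraries 44106833 to 50519612, with reads that several rows may share. Of these counts, member rows held 0.315% to 0.516% for astrocyte EVs and 0.554% to 1.67% for NSC EVs. A count of 0 allows up to 3 counts, which is 0.0270 to 0.0678 counts per 1000000 counts of the library (CPM) without scaling, and such floors cover counting error only. Scaling by TMM, which lines up the bulk of rows, gave factors from 0.488 in astrocyte EV replicate 1 to 1.43 in NSC EV replicate 2. CPM values below are TMM-scaled, and astrocyte EV replicate 1 was therefore often the highest of its group on that scale.

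Of the 153 leads tested, 17 were higher in astrocyte EVs, 5 were lower and 131 did not pass the test (edgeR's quasi-likelihood test, Benjamini-Hochberg adjustment over 41308 rows, adjusted p under 0.05). The 17 are 11.1% of the leads, against a background of 5.54% of all rows called higher. The 5 are 3.27% of the leads, against 4.24% of all rows called lower. Some called leads nearly repeat one another, so these numbers do not count separate RNAs. For example, chr3.tRNA792-MetCAT and chr13.tRNA995-MetCAT differed by more than 10% only in NSC EV replicate 1, with 181 against 158 counts. The higher leads were 8 of Gln, 3 of Met, 3 of Leu, 2 of Arg and 1 of Ala, and all 5 lower leads were Cys. All 22 had groups that do not overlap and a change over 2-fold, and kept their direction in each of 17 alternative analyses. These leads were picked by a test on the same libraries, so such traits are no separate support for the calls. The astrocyte EV libraries were all above the NSC EV libraries in 30 leads (19.6%, against 17.2% of all rows). The NSC EV libraries were all above in 10 (6.54%, against 16.7%). The median log2 fold change, astrocyte EVs minus NSC EVs throughout, was 0.39 over the 153 leads and -0.04 over all rows tested. It was 1.08 over the 55 tested leads of the 6 isotypes left out here, of which 12 were higher and 0 lower.

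The number of leads called higher changed with each library left out. Without astrocyte EV replicate 1, astrocyte EV replicate 2 or NSC EV replicate 3, 0 leads were called by edgeR's quasi-likelihood test. In these fits 39 of 154, 38 of 155 and 39 of 154 leads had an unadjusted p under 0.05. Among all rows 9885 of 42189, 9729 of 42002 and 10172 of 43585 did, a share close to that of the leads. Leaving out replicate 1 or 2 of the astrocyte EVs also left 0 calls among all rows, and leaving out NSC EV replicate 3 left 18 (0.00918% higher and 0.0321% lower). Without astrocyte EV replicate 3 there were 33 higher and 4 lower, where 6.69% and 2.94% of all rows were called. Without NSC EV replicate 1 there were 6 and 5 (2.23% and 3.61% of all rows), and without NSC EV replicate 2 there were 6 and 4 (2.17% and 2.78%). DESeq2 on all libraries called 32 higher and 6 lower, against 10.2% and 8.93% of all rows.

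**Figure D2:**
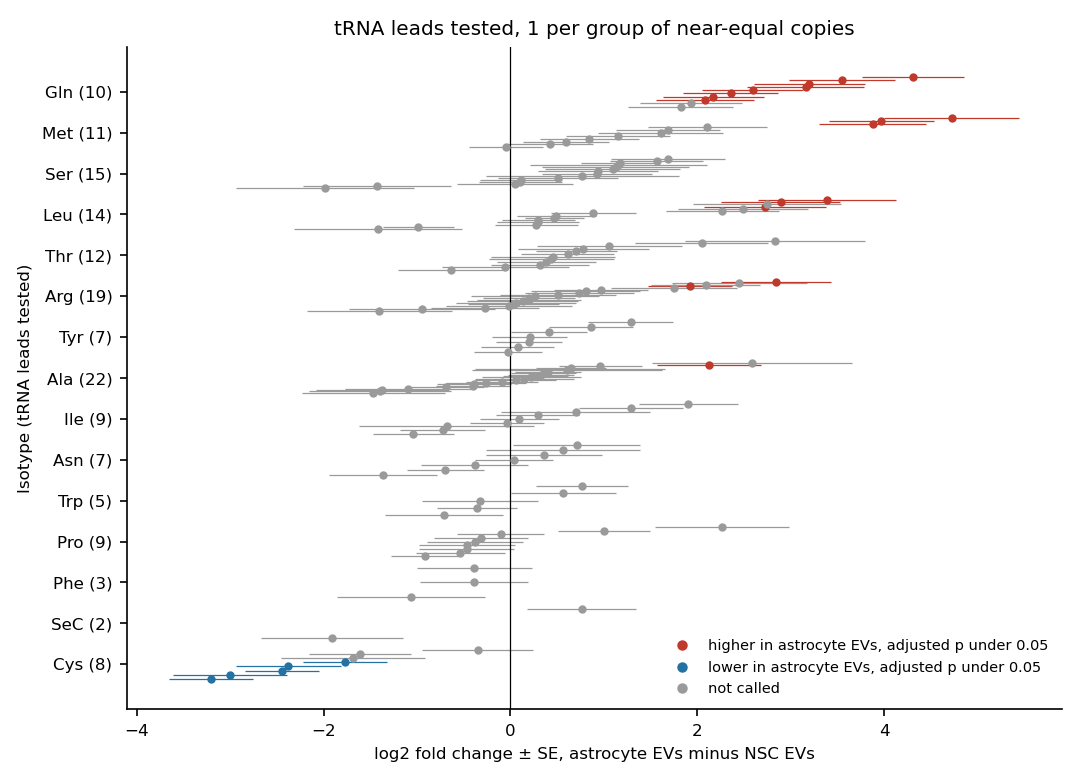
Log2 fold change with its standard error (bars) for each of the 153 leads tested, astrocyte EVs minus NSC EVs, by isotype in the order of the median. The 17 leads called higher (red) are mostly Gln, Met and Leu, and the 5 called lower (blue) are all Cys.

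Most Gln leads were higher in astrocyte EVs: 8 of 10 rose and the other 2 did not pass the test, with a median log2 fold change of 2.48. The Gln-CTG tRNA reads CAG codons and Gln-TTG reads CAA. All 6 Gln-CTG leads were called higher, with log2 fold changes from 2.17 to 4.31, and 2 of 4 Gln-TTG leads. The counts of chr13.tRNA87-GlnCTG (n-TQctg10, chr13:21920200-21920271, plus, between genes) were 1848, 1606 and 1658 in astrocyte EV replicates 1 to 3 and 61, 86 and 93 in NSC EV replicates 1 to 3. The lowest astrocyte EV library thus lay far above the highest NSC EV library. In CPM it stood at 27.2 ± 16.3 (SD, n = 3) against 1.37 ± 0.308 (SD, n = 3), a log2 fold change of 4.31 (SE 0.55, edgeR adjusted p = 0.0156). A tRNA-like repeat row held similar counts in astrocyte EVs and fewer in NSC EVs.

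The Gln-CTG lead with the most counts was chr13.tRNA64-GlnCTG (n-TQctg7, chr13:21172351-21172422, plus, between genes), which stands for 4 copies. It held 2782, 2547 and 2687 counts in astrocyte EVs and 148, 200 and 459 in NSC EVs. The groups did not overlap, and NSC EV replicate 3 was the highest of its group. This gave a log2 fold change of 3.16 (SE 0.63, edgeR adjusted p = 0.0249). Close by in level was chr3.tRNA297-GlnCTG (n-TQctg3, 2 copies, chr3:96479391-96479462), with 2619, 2297 and 2595 counts against 134, 156 and 289. Its log2 fold change was 3.55 (SE 0.57, edgeR adjusted p = 0.0167). The smallest change among Gln-CTG leads was that of chr3.tRNA309-GlnCTG (n-TQctg2, chr3:97681459-97681530), 2.17 (SE 0.55, edgeR adjusted p = 0.0444), from 797, 668 and 813 against 94, 125 and 233 counts. For Gln-TTG, whose leads were chosen for naming after their values were seen, chr13.tRNA1007-GlnTTG had 400, 293 and 419 against 45, 63 and 86 counts (2.36, SE 0.51, edgeR adjusted p = 0.0304). The 4 Gln-TTG leads spanned 1.82 to 2.36.

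Met-CAT held 3 strongly changed leads, while the other 8 tested ranged from -0.05 to 2.11 on the log2 scale and did not pass the test. The lead with the largest change of all members was chr13.tRNA82-MetCAT (n-TMcat2, chr13:21907111-21907182, plus, between genes). It held 2703, 1775 and 2368 counts in astrocyte EVs and 70, 35 and 131 in NSC EVs. Before scaling for library size, every astrocyte EV library had over 10 times the count of every NSC EV library. On the CPM scale the gap between the closest libraries was smaller. The lead stood at 36.6 ± 25.0 CPM against 1.39 ± 0.920 CPM (SD, n = 3 each). The log2 fold change was 4.72 (SE 0.73, edgeR adjusted p = 0.0162). It stayed between 4.0 and 5.3 as single libraries were left out, and a tRNA-like repeat row held similar counts.

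The group of 6 copies led by chr13.tRNA995-MetCAT (n-TMcat10, chr13:21931169-21931240, minus) had 2878, 2008 and 2554 against 158, 109 and 170 counts, a log2 fold change of 3.97 (SE 0.57, edgeR adjusted p = 0.0156). The lead chr3.tRNA792-MetCAT (n-TMcat11, chr3:90475860-90475931, minus) had nearly the same astrocyte EV counts, 2866, 1993 and 2552, against 181, 109 and 174, and a log2 fold change of 3.88 (SE 0.57, edgeR adjusted p = 0.0156). At the other end chr8.tRNA788-MetCAT (n-TMcat17, chr8:121579229-121579301, minus, in an intron of Gm20388) held 179, 192 and 221 counts against 170, 193 and 172. Its groups overlapped, with a log2 fold change of -0.05 (SE 0.40, edgeR adjusted p = 0.954). It lay 4.77 below chr13.tRNA82-MetCAT on the log2 scale, the widest gap among leads of an anticodon with at least 1000 summed counts. The chr8 row has 73 bases and the chr13 row 72. Since initiator and elongator Met tRNAs share this anticodon, the gap may lie between different tRNAs, which was not tested.

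Leu leads were called higher for 3 of 14, each of another anticodon. The lead chr14.tRNA709-LeuTAG (n-TLtag2, chr14:51082830-51082911, minus, between genes) held 1521, 1554 and 653 counts in astrocyte EVs and 96, 86 and 178 in NSC EVs. Astrocyte EV replicate 3 was the lowest of its group and still above all NSC EV libraries. Its log2 fold change was 3.39 (SE 0.74, edgeR adjusted p = 0.0313). The lead chr7.tRNA561-LeuAAG (n-TLaag4), named after its values were seen, had 1664, 1693 and 927 against 197, 139 and 232 counts (2.90, SE 0.64, edgeR adjusted p = 0.0319). Bases at chr7:120917528-120917598, 71 of its 82, lie in the promoter window of Polr3e, which encodes a subunit of RNA polymerase III.

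Leu-CAG gave the highest Leu counts. The 8 copies led by chr1.tRNA701-LeuCAG (n-TLcag6, chr1:171065984-171066066, plus) held 5562, 4936 and 4574 counts against 1126, 493 and 1274. The groups did not overlap, but the log2 fold change of 2.27 (SE 0.60, edgeR adjusted p = 0.0513) was just outside the threshold. The single-copy lead chr3.tRNA1026-LeuCAG (n-TLcag1, chr3:24163025-24163107, minus, in an intron of Naaladl2) was just inside it, at 2.73 (SE 0.65, edgeR adjusted p = 0.0392), from 843, 657 and 513 against 133, 55 and 108 counts. The lead chr8.tRNA171-LeuCAG (n-TLcag2, in an intron of Sgcz) overlapped between groups, with 312, 334 and 408 against 345, 173 and 227 counts and a log2 fold change of 0.28 (SE 0.44, edgeR adjusted p = 0.718). This value turned negative without TMM scaling (-0.39), with tRNA rows alone (-0.43) and without astrocyte EV replicate 1 (-0.09).

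The mitochondrial Leu tRNA, chrM.tRNA1-LeuTAA (mt-Tl1) held more counts in NSC EVs. It had 732, 451 and 81 counts in astrocyte EVs and 1286, 1605 and 1075 in NSC EVs. The groups did not overlap and astrocyte EV replicate 3 was far below the rest, with a log2 fold change of -1.42 (SE 0.90, edgeR adjusted p = 0.331). It and the row labelled LeuAAG at 3 places were named after their values were seen. That row held 31, 34 and 145 counts against 73, 89 and 106, and its log2 fold change was -0.98 (SE 0.38, edgeR adjusted p = 0.127). Its groups did not overlap in CPM, although astrocyte EV replicate 3 had the highest count of all 6 libraries.

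Arg leads were called higher for 2 of 19. For chr3.tRNA628-ArgTCT (n-TRtct2, in an exon of the noncoding RNA Gm17494), named after its values were seen, the counts were 310, 282 and 196 in astrocyte EVs and 38, 32 and 37 in NSC EVs. The groups were clearly apart, at 4.44 ± 3.02 CPM against 0.615 ± 0.0923 CPM (SD, n = 3 each). This was a log2 fold change of 2.84 (SE 0.59, edgeR adjusted p = 0.0277). For chr9.tRNA783-ArgACG (n-TRacg2, 2 copies, chr9:123529425-123529497, minus) they were 531, 477 and 2873 against 209, 145 and 263. Here astrocyte EV replicate 3 held most of the counts, and the log2 fold change was 1.92 (SE 0.45, edgeR adjusted p = 0.0378), or 1.52 (edgeR adjusted p = 0.0621) without that library. The other Arg-ACG leads, named after their values were seen, had the same shape. In astrocyte EVs chr3.tRNA1040-ArgACG held 218, 218 and 2777 counts and chr13.tRNA965-ArgACG held 312, 284 and 2741.

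Ala leads held the clearest case of a value set by a single library. The lead chrX.tRNA375-AlaTGC (n-TAtgc1, chrX:136590365-136590436, plus, between genes) had 300, 437 and 15927 counts in astrocyte EVs and 601, 253 and 364 in NSC EVs. Astrocyte EV replicate 3 stood alone, and the other 5 libraries overlapped. The log2 fold change was 2.59 (SE 1.07, edgeR adjusted p = 0.151), and 0.02 without astrocyte EV replicate 3. The only Ala lead past the test, chr13.tRNA94-AlaAGC (3 copies, named after its values were seen), was low, at 117, 108 and 108 counts against 18, 37 and 16 (2.13, SE 0.55, edgeR adjusted p = 0.0485).

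All leads called lower in astrocyte EVs were Cys: 5 of 8 fell and 3 did not pass the test, with a median log2 fold change of -2.07. Other isotypes joined them on other scales, as 7 Cys leads were among the 15 called lower without TMM and 7 among the 23 with tRNA rows alone. All Cys rows carry the anticodon GCA, which reads both cysteine codons. The lead of 7 copies chr11.tRNA1432-CysGCA (n-TCgca54, chr11:97988923-97988994, minus, between genes) held 591, 945 and 448 counts in astrocyte EVs and 5385, 3649 and 5906 in NSC EVs. No library of either group came near the other group. In CPM this is 10.8 ± 6.63 against 86.5 ± 25.5 (SD, n = 3 each). The log2 fold change was -3.00 (SE 0.61, edgeR adjusted p = 0.0259). It ran from -3.34 to -2.55 as single libraries were left out, and here too a tRNA-like repeat row held similar counts.

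The other 4 called Cys leads lie in the chromosome 6 cluster. The counts of chr6.tRNA1034-CysGCA (n-TCgca10, chr6:48139510-48139581, minus, in an intron of Gm16630) were small, 5, 7 and 22 against 44, 90 and 82. They did not overlap, and the log2 fold change was -3.20 (SE 0.45, edgeR adjusted p = 0.0156). For chr6.tRNA167-CysGCA (n-TCgca8, chr6:48186318-48186389, plus) they were 15, 18 and 30 against 67, 98 and 104 (-2.45, SE 0.40, edgeR adjusted p = 0.0170). For chr6.tRNA1014-CysGCA (n-TCgca16, chr6:48308729-48308800, minus) they were 154, 227 and 123 against 911, 587 and 939 (-2.38, SE 0.56, edgeR adjusted p = 0.0386). The smallest of these changes was that of chr6.tRNA1033-CysGCA (n-TCgca4, chr6:48140484-48140555, minus, in an intron of Gm16630), with 23, 41 and 44 against 61, 110 and 127 counts (-1.77, SE 0.45, edgeR adjusted p = 0.0452).

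The Cys group with the most copies did not pass the test. Its 37 copies, led by chr11.tRNA1444-CysGCA (n-TCgca18, chr11:97769829-97769900, minus), held 3608, 4078 and 2018 counts in astrocyte EVs and 11339, 3194 and 15699 in NSC EVs. NSC EV replicate 2 fell within the astrocyte EV range while replicates 1 and 3 were far above it. The log2 fold change was -1.69 (SE 0.77, edgeR adjusted p = 0.187). It was also the lead with the most counts per base of all members, 555 over the 6 libraries. The lead chr6.tRNA1026-CysGCA (n-TCgca48, chr6:48224329-48224400, minus) had 546, 929 and 1914 against 650, 369 and 1963 counts. It overlapped between groups, at -0.35 (SE 0.59, edgeR adjusted p = 0.739), and its sign turned without NSC EV replicate 3 (0.67). It lay 2.65 above chr11.tRNA1432-CysGCA on the log2 scale, so copies of this anticodon did not share a value.

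**Figure D3:**
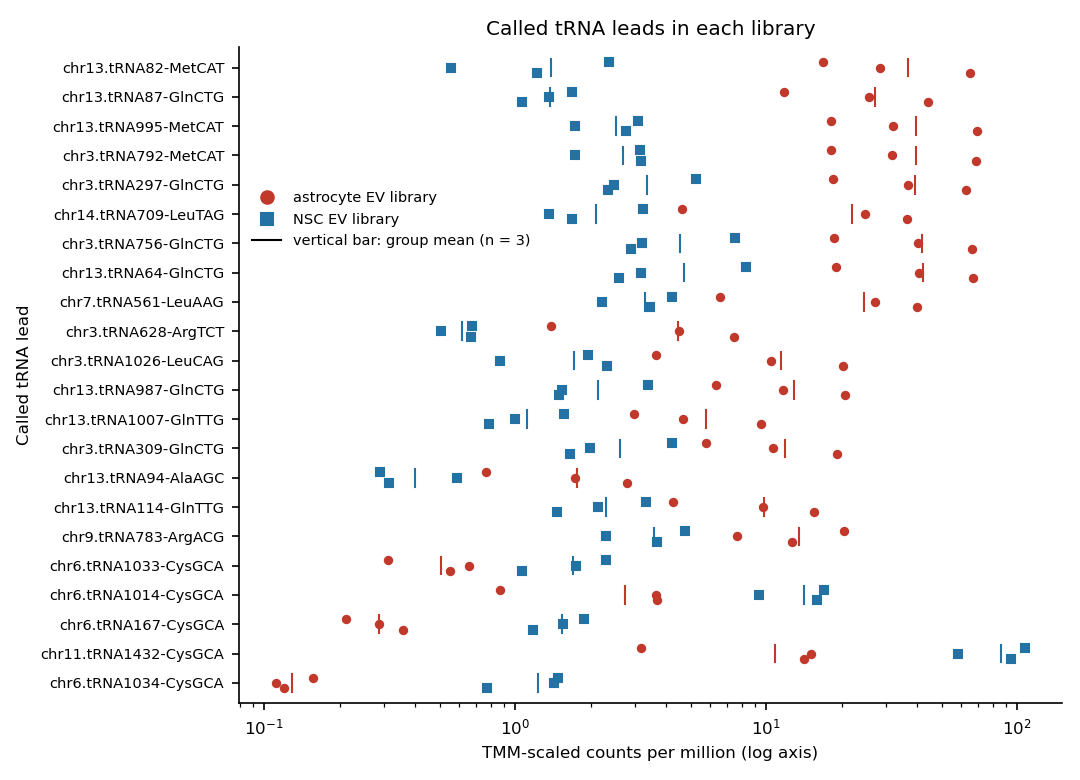
TMM-scaled CPM (log axis) of the 22 called leads in each library, circles for astrocyte EVs and squares for NSC EVs, with a bar at each group mean (n = 3). Circles lie to the right of squares for the 17 Met, Gln, Leu, Arg and Ala leads and to the left for the 5 Cys leads.

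The most abundant Ala and Ser rows shared the shape of the 37 Cys copies, with NSC EV replicates 1 and 3 high and replicate 2 not. The lead chr13.tRNA66-AlaAGC (n-TAagc16) held 2754, 3045 and 2223 counts in astrocyte EVs and 6748, 1977 and 10397 in NSC EVs (log2 fold change -1.38, SE 0.71, edgeR adjusted p = 0.236). The leads chr13.tRNA67-AlaAGC (-1.47, SE 0.76, edgeR adjusted p = 0.240) and chr13.tRNA68-AlaTGC (-1.40, SE 0.76, edgeR adjusted p = 0.259) lie close to it on the chromosome. The last of these held 2680, 2751 and 1669 counts against 6578, 1705 and 9569. A row of 127 bases labelled chr5.tRNA1136-SerAGA, at chr5:143347066-143347192 (minus), held 2558, 2637 and 1456 against 6484, 1514 and 9253. Each of these is a little below the count of chr13.tRNA68-AlaTGC in the same library, although the isotype differs, and whether the rows share reads was not tested. Groups overlapped in all 4.

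Of 15 Ser leads 0 were called by edgeR, with 3 at an unadjusted p under 0.05 and 2 called by DESeq2. Both shares were below those of all rows, where 12086 of 41308 had such a p and DESeq2 called 10.2% higher and 8.93% lower. The pair whose sequences are shown above held nearly the same counts. For chr4.tRNA16-SerAGA (n-TSaga9, 7 copies) they were 3170, 2510 and 4832 in astrocyte EVs and 2934, 1715 and 3312 in NSC EVs. For chr13.tRNA112-SerTGA (n-TStga1, 2 copies of identical sequence) they were 3156, 2483 and 4805 against 2932, 1715 and 3312. The largest difference between them in a library was 1.08%. Their log2 fold changes were 0.12 (SE 0.44, edgeR adjusted p = 0.890) and 0.11 (SE 0.44, edgeR adjusted p = 0.899), and both turned negative without TMM, at -0.52 and -0.53.

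In all, 7 pairs of leads with different anticodons and at least 50 counts in every library lay within 10% of each other in all 6. All 7 pairs were of the same isotype, among Ala, Pro and Ser. All 3 Pro anticodons appear in them, as chr14.tRNA711-ProAGG (6 copies), chr1.tRNA1030-ProCGG (2 copies) and chr11.tRNA207-ProTGG (4 copies) held 3051, 3127 and 3147 counts in astrocyte EV replicate 1 and 5837, 6238 and 6271 in NSC EV replicate 3. Below that floor, the row labelled LeuAAG at 3 places lay near a row of another isotype, chr1.tRNA284-ProAGG. The first held 31, 34 and 145 counts in astrocyte EVs and 73, 89 and 106 in NSC EVs. The second held 36, 36 and 145 against 74, 91 and 106. Counts on such rows cannot be assigned to an anticodon from the table, since the sources used here do not say how reads that match several places were counted.

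Pro leads were among the most abundant, and 0 of 9 were called by edgeR, with 2 at an unadjusted p under 0.05 and 1 called by DESeq2. These shares too were below those of all rows, 12086 of 41308 by unadjusted p and, by DESeq2, 10.2% higher and 8.93% lower. The highest Pro lead, chr11.tRNA396-ProCGG (n-TPcgg3, chr11:69040385-69040456, plus), held 3665, 3810 and 4156 counts against 3317, 3021 and 6385, with 338 counts per base over the 6 libraries. Groups overlapped, and the log2 fold change was -0.32 (SE 0.50, edgeR adjusted p = 0.717). The leads of the near-equal Pro groups stood at -0.38, -0.46 and -0.47 (SE 0.51 each, edgeR adjusted p from 0.582 to 0.665). Each of these 4 turned slightly positive without NSC EV replicate 3, between 0.01 and 0.14.

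In all, 9 isotypes (Asn, Ile, Phe, Pro, SeC, Ser, Thr, Trp and Tyr) had 0 calls by edgeR among 69 leads, with 13 at an unadjusted p under 0.05 and 6 called by DESeq2. Both shares were below those of all rows. There, 12086 of 41308 had such a p, and DESeq2 called 10.2% higher and 8.93% lower. For Tyr, chr5.tRNA109-TyrGTA (n-TYgta9, chr5:30888083-30888171, plus) held 424, 463 and 412 counts against 149, 181 and 159. Its groups did not overlap in CPM, but on that scale the closest libraries lay nearly level. The log2 fold change was 1.29 (SE 0.45, edgeR adjusted p = 0.104). For Trp, chr11.tRNA1820-TrpCCA (n-TWcca6, 2 copies) held 405, 398 and 340 against 197, 179 and 250, at 0.77 (SE 0.49, edgeR adjusted p = 0.340). For Phe, chr5.tRNA1316-PheGAA (n-TFgaa7, 5 copies) ranged from 39 to 256 counts within the NSC EVs alone and stood at -0.39 (SE 0.58, edgeR adjusted p = 0.699).

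The most abundant leads of Asn, Thr and Ile each overlapped between groups. The counts of chr2.tRNA1947-AsnGTT (n-TNgtt9) were 1098, 1544 and 396 against 376, 366 and 1320, at 0.56 (SE 0.82, edgeR adjusted p = 0.691). For chr14.tRNA710-ThrTGT (n-TTtgt3, 2 copies) they were 385, 375 and 295 against 163, 284 and 322, at 0.39 (SE 0.53, edgeR adjusted p = 0.673). For chr13.tRNA980-IleAAT (n-TIaat9, 4 copies) they were 340, 349 and 486 against 184, 383 and 371, at 0.10 (SE 0.42, edgeR adjusted p = 0.907). All 3 were negative without TMM, at -0.16, -0.39 and -0.59. A rarer Ile row, chr13.tRNA999-IleTAT (chosen after its values were seen), held 44, 68 and 48 against 20, 28 and 11 counts, the same 6 counts as the hairpin row of mir-1983 at that place.

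The selenocysteine tRNA is charged with serine first and reads a UGA codon that selenoprotein mRNAs mark. Its gene at chr7:19301244-19301329 (plus, between genes), chr7.tRNA88-SeCTCA, held 917, 838 and 559 counts in astrocyte EVs and 618, 319 and 397 in NSC EVs. The libraries overlapped, with a log2 fold change of 0.77 (SE 0.59, edgeR adjusted p = 0.422) that was -0.04 both without TMM and with tRNA rows alone. A second row of this label, chr5.tRNA13-SeCTCA in an intron of Cfap69 (named after its values were seen), held 20, 16 and 51 counts against 73, 162 and 12.

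As a share of all tRNA counts, with 1 row per group of copies, members took 1.20%, 1.57% and 1.73% in astrocyte EVs and 3.11%, 2.87% and 4.39% in NSC EVs. The NSC EV libraries were all higher, at 3.45% ± 0.818 against 1.50% ± 0.268 (SD, n = 3 each), and the rest of the tRNA counts lay on the 6 isotypes left out here. Cys differed most among isotypes whose libraries did not overlap, at 0.0775% ± 0.0241 in astrocyte EVs and 0.658% ± 0.207 in NSC EVs, 8.48 times higher in NSC EVs. Ala (3.02 times), Pro (3.07), Ser (2.91), Trp (2.35) and Tyr (1.74) were also higher in all NSC EV libraries. Gln and Met were the only isotypes higher in all astrocyte EV libraries. Gln took 0.183% ± 0.0175 against 0.0612% ± 0.0240, and Met 0.115% ± 0.000634 against 0.0386% ± 0.00638 (SD, n = 3 each), both 2.99 times higher. The other isotypes overlapped. These shares are sums over members and carry no test, and a share falls when the 6 other isotypes rise. The total also differed between groups. With every row counted, all tRNA rows held 37.0% to 51.3% of the counts outside miRNA hairpins in astrocyte EVs. In NSC EVs they held 21.6% to 34.1%.

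**Figure D4:**
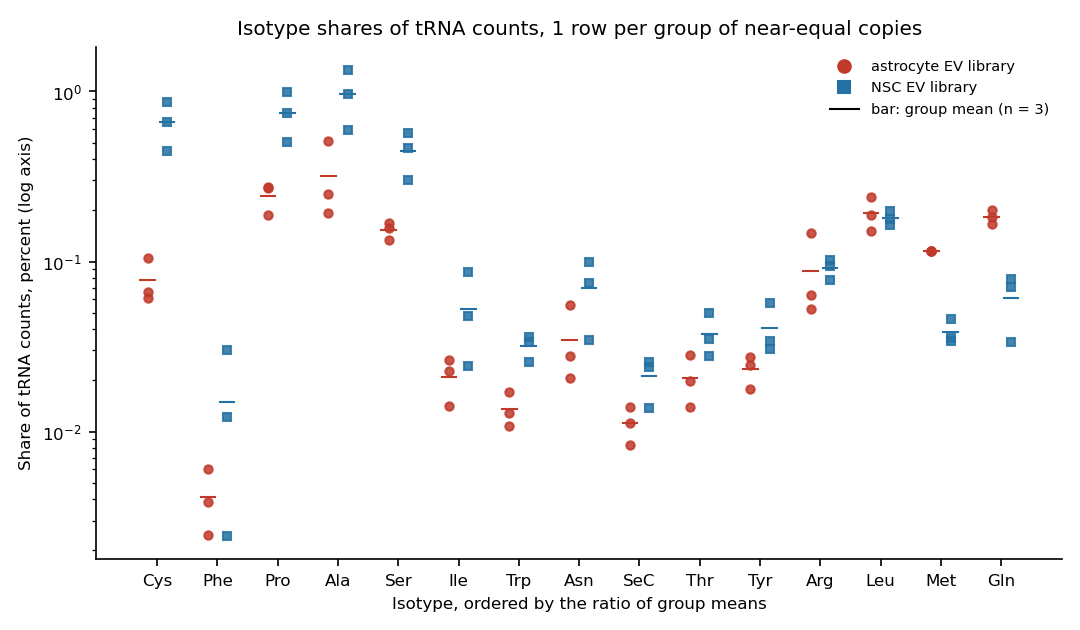
Share of tRNA counts (percent, log axis) of each isotype in each library, with 1 row per group of near-equal copies, circles for astrocyte EVs, squares for NSC EVs and bars for group means (n = 3). The Cys squares lie between 0.449% and 0.863%, above all Cys circles, and the Met and Gln circles lie above their squares.

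The scale bears on how many leads were higher and how many lower. Without TMM the median of all rows moved by -0.50 on the log2 scale, and 10 leads were higher and 15 lower, so the higher leads were 40.0% of the calls instead of 77.3%. Of all rows 1.79% were then higher and 7.79% lower. On that scale the median lead stood at -0.31 and the median of all rows at -0.54. With a fit on tRNA rows alone the median of the 410 tRNA rows in both fits moved by -0.71, from 0.45 to -0.26, and 20 leads were higher and 23 lower (46.5% of calls higher), against 18.2% and 19.9% of the tRNA rows. With library sizes from mature miRNAs it moved by 0.24, and 26 were higher and 4 lower (86.7%), against 5.36% and 3.73% of all rows. Without the low-count filter 29 of 166 were higher and 5 lower, against 4.9% and 4.29%. The log2 fold change of chr13.tRNA82-MetCAT was 3.99 without TMM and that of chr11.tRNA1432-CysGCA was -3.70.

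**Figure D5:**
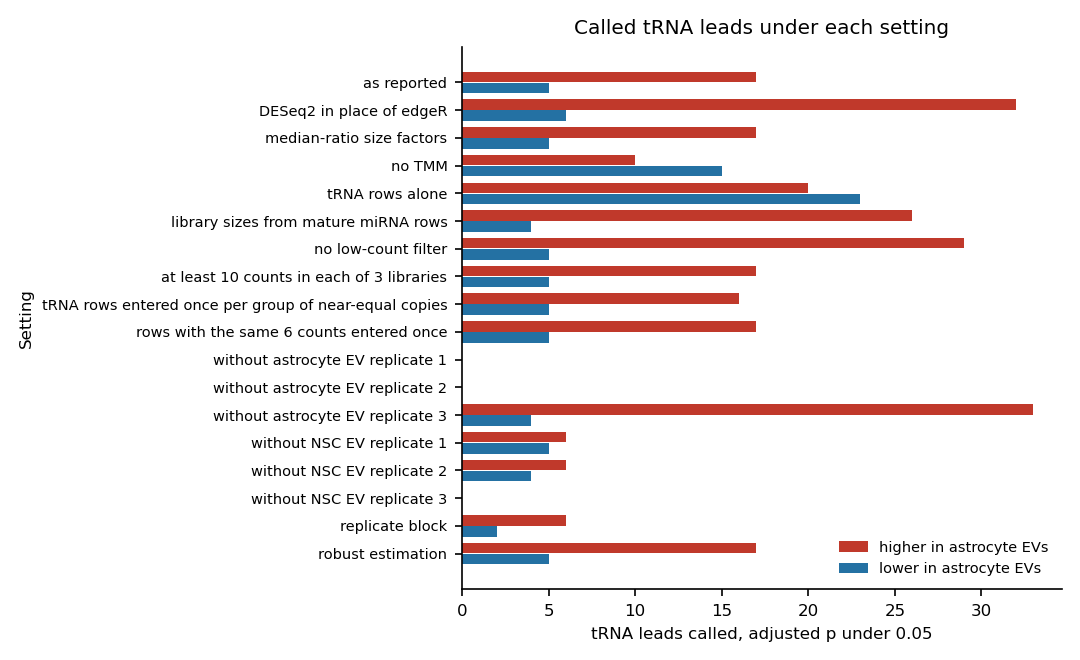
Number of leads called higher (red) and lower (blue) in astrocyte EVs under each setting (edgeR, or DESeq2 where named, adjusted p under 0.05). Both numbers are 0 without astrocyte EV replicate 1, astrocyte EV replicate 2 or NSC EV replicate 3.

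By the position of the lead row alone, the higher leads were 8 of 46 tested on chromosome 13, 6 of 11 on chromosome 3 and 1 each on chromosomes 7, 9 and 14. The lower leads were 4 of 7 on chromosome 6 and 1 of 24 on chromosome 11. Of all rows 5.54% were called higher and 4.24% lower. Near-equal copies can lie on other chromosomes than their lead. The called leads on chromosomes 7 and 9 each stand for a row on chromosome 13 too. The one on chromosome 11 also stands for rows on chromosomes 6, 9 and 17. The counts of such groups cannot be placed on a chromosome. The chromosome 3 leads had a median log2 fold change of 2.45 and those of chromosome 13 a median of 0.55. Isotype and position overlap here, because the chromosome 6 leads are mostly Cys.

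Genes that act on tRNAs were read from fragments of their mRNAs in the same libraries, from lists fixed with earlier results known. Of 15 cytosolic aminoacyl-tRNA synthetases, which load the amino acids, 1 rose and 0 fell, with a median log2 fold change of -0.19. This is 6.67%, near the 5.54% of all rows called higher. The riser was Yars, which charges tyrosine, with 371, 472 and 920 counts against 116, 78 and 80 (2.28, SE 0.33, edgeR adjusted p = 0.0156). Of 48 genes of tRNA transcription, processing and cleavage, 3 rose and 1 fell, with a median of -0.08. These shares, 6.25% and 2.08%, are close to or below the 5.54% and 4.24% of all rows. They were Tsen54, a subunit of the tRNA splicing endonuclease (3.34, SE 0.59, edgeR adjusted p = 0.0200), Gtf3c6 (2.87, SE 0.54, edgeR adjusted p = 0.0227) and Polr3g (1.68, SE 0.39, edgeR adjusted p = 0.0367) of the polymerase III machinery, and Elac2, which trims the 3′ end of tRNAs (-1.75, SE 0.41, edgeR adjusted p = 0.0366). Of 5 selenocysteine genes, Pstk, the kinase that acts on the charged tRNA, rose (1.68, SE 0.36, edgeR adjusted p = 0.0311) and the other 4 did not pass. That is 20% of the list against 5.54% of all rows, but a list of 5 genes is too short to compare.

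Fragments of marker mRNAs of both labelled cells were present in both EV types, and their summed levels did not separate the groups. The 10 astrocyte markers summed to 29.8 to 35.8 CPM for astrocyte EVs against 30.8 to 52.2 CPM for NSC EVs, and the 10 NSC markers to 22.1 to 26.7 CPM and 19.4 to 33.0 CPM. Among them Gfap, an astrocyte filament, rose in astrocyte EVs (89, 107 and 451 counts against 33, 51 and 31, edgeR adjusted p = 0.0263), as did Aldoc (edgeR adjusted p = 0.0448). Fabp7, a marker of NSCs, fell (1, 8 and 10 against 50, 19 and 46, edgeR adjusted p = 0.0304). Other markers lay the opposite way without passing the test, with log2 fold changes of -1.15 for Slc1a3 and -0.80 for Slc1a2 of astrocytes and 1.67 for Vim of NSCs. The summed level of 5 neuron markers ran from 81.9 to 158 CPM with astrocyte EVs and from 212 to 309 CPM with NSC EVs, and Rbfox3 fell (edgeR adjusted p = 0.0409). Without Rbfox3 the other 4 summed to 24.5 to 75.9 CPM and 39.3 to 64.6 CPM, which overlap. The summed level of 5 fibroblast markers ran from 10.1 to 21.3 CPM and from 8.25 to 8.93 CPM, with Col1a2 higher in astrocyte EVs (edgeR adjusted p = 0.0237). Without Col1a2 the other 4 summed to 5.24 to 7.35 CPM and 6.01 to 7.77 CPM, which overlap as well, and Col3a1 stood at -0.83. Microglial (6 tested), oligodendrocyte (5), endothelial (3) and red blood cell (1) markers gave no calls by edgeR, and no marker was at 0 in all libraries. The part of these cells in the tRNA results was not tested.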

How the data were processed

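Small RNA of P100 EV pellets was measured in 3 astrocyte and 3 NSC libraries. RNA was extracted with Trizol and a SeraMir kit; the sources name different library kits and sequencers. The authors aligned reads to mm10 and deposited raw counts per annotated row. Tools listed by the submitters' notes, with no version, were Bowtie and Bowtie2, SAMtools and bedtools, FastQC, DESeq and cutadapt; the sources used here do not give the handling of multi-mapping reads or of strand. The authors' tables of group means, fold changes and adjusted p-values were not used. A read counted on several rows raises each of them.

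Rows of hairpin miRNAs, which repeat mature miRNAs, were left out. All other rows were fitted with edgeR 4.0.16 (R 4.3.3): TMM, filterByExpr by group, quasi-likelihood test, Benjamini-Hochberg adjustment over all rows, threshold 0.05. The scripts were tested on simulated data. Alternatives were DESeq2 1.42.0, other scalings, filters and copy tolerances, robust estimation, single entry of repeated rows, each library left out and a replicate block. Named leads were those with the highest summed count of each isotype, the 12 highest of all, the 6 largest called changes in each direction with at least 100 summed counts and no overlap, the Met-CAT and SeC leads with the most counts, and the widest pairs in 5 anticodons with at least 1000 summed counts; initiator and elongator Met, which the rule meant to separate, were not told apart; others are said to be chosen after their values were seen. Members and lists were chosen with earlier results of these data known.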

Additional observations from a re-analysis of the deposited data

Results flagged for a closer look

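Rows of a separate type, tRNA-like repeats named after tRNAs, lie outside the member rows and held counts above the 3 that a count of 0 allows; for each of the 10 isotypes with such a row of at least 1000 counts, the one with the most counts is given here, summed over the 6 libraries. They were tRNA-Cys-TGY_copy13 with 79410 counts, tRNA-Gln-CAA__copy3 (on the mitochondrial genome) with 64298, tRNA-Ala-GCY__copy1118 with 29687, tRNA-Ser-TCA(m)_copy1 with 20073, tRNA-Met-i_copy4 with 6934, tRNA-Phe-TTY_copy38 with 3758, tRNA-Tyr-TAT_copy1 with 2512, tRNA-Pro-CCY_copy5 with 2265, tRNA-Leu-TTG_copy10 with 1741 and tRNA-Asn-AAC_copy10 with 1208 counts. In all, 62 of 1571 such rows of the member isotypes had at least 1000 counts.

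Some of them held counts close to those of a member. The row tRNA-Met-i_copy4 held 2652, 1742 and 2327 counts in astrocyte EVs and 63, 26 and 124 in NSC EVs, near those of chr13.tRNA82-MetCAT. The row tRNA-Cys-TGY_copy23 held 538, 884 and 322 against 5340, 3611 and 5880, near those of chr11.tRNA1432-CysGCA. The row tRNA-Gln-CAG_copy2 held 1761, 1540 and 1588 against 22, 26 and 18, near those of chr13.tRNA87-GlnCTG in astrocyte EVs and lower in NSC EVs. Whether reads are shared was not tested.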

How the results depend on the processing

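The 17 higher and 5 lower leads became 32 higher with DESeq2, 10 higher and 15 lower without TMM, 23 lower with tRNA rows alone, 26 higher with library sizes from mature miRNAs and 29 higher without a low-count filter. Leaving out single libraries gave 0 to 33 higher and 0 to 5 lower. With a replicate block there were 6 higher and 2 lower (1.62% and 1.4% of all rows); replicate numbers are shared across groups but deviations of same-numbered libraries correlated at -0.0466, -0.0466 and -0.149, so the numbers were not taken to pair the libraries. The fold changes of 38 named leads were compared in 646 cases: 527 kept direction and side of the threshold, 70 lost the call, 17 gained one and 32 turned sign, none of the last in a called lead. Without TMM and with tRNA rows alone, in that order, log2 fold changes turned to -0.035 and -0.036 for chr7.tRNA88-SeCTCA, -0.16 and -0.11 for chr2.tRNA1947-AsnGTT, -0.39 and -0.37 for chr14.tRNA710-ThrTGT, -0.39 and -0.43 for chr8.tRNA171-LeuCAG, -0.52 and -0.54 for chr4.tRNA16-SerAGA, -0.53 and -0.54 for chr13.tRNA112-SerTGA, and -0.59 and -0.60 for chr13.tRNA980-IleAAT. That of chr8.tRNA788-MetCAT was 0.0077 with miRNA library sizes, and that of chr6.tRNA1026-CysGCA was 0.057 with the replicate block. As single libraries were left out, values crossed 0 for chr14.tRNA710-ThrTGT (-0.15 to 0.80), chr8.tRNA171-LeuCAG (-0.087 to 0.61), chr4.tRNA16-SerAGA (-0.33 to 0.34), chr13.tRNA112-SerTGA (-0.35 to 0.33), chr13.tRNA980-IleAAT (-0.26 to 0.37), chr8.tRNA788-MetCAT (-0.42 to 0.28), chr11.tRNA396-ProCGG (-0.73 to 0.14), chr6.tRNA1026-CysGCA (-0.75 to 0.67), chr14.tRNA711-ProAGG (-0.76 to 0.12), chr5.tRNA1316-PheGAA (-0.83 to 0.14), chr1.tRNA1030-ProCGG (-0.85 to 0.024) and chr11.tRNA207-ProTGG (-0.85 to 0.0070). The difference in Arg share, astrocyte EVs minus NSC EVs, was 0.00806 percentage points with a copy tolerance of 5%, 0.000316 with 20% and 0.00306 with every row counted, and ran from -0.0331 to 0.0142 as libraries were left out; that of Leu ran from -0.0110 to 0.0330. The difference for all members, -1.95 points, was -2.85 with every row counted. The cause of these changes was not tested. The 3 libraries per group, with a biological coefficient of variation of 0.449, limit what could be called.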
